A study of Mus musculus with 9 samples.

Results

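The genes Ttr, Folr1, Kl, Aqp1, Clic6, Otx2, Slc4a5 and Enpp2 are commonly used to recognise the choroid plexus. They were picked by gene name, without a threshold on their values, but with earlier results of these data known. They were 8 of the 54532 genes listed in each deposited table, and all 8 passed the filter on low values (a mean of at least 1 FPKM) in every comparison. FPKM is the number of sequenced fragments scaled to gene length and to the size of the library, so levels of different genes can be set side by side. RNA sequencing libraries were made from the hippocampus of mice in 3 groups, with 3 libraries each and 9 in all. All mice were C57BL/6, were labelled male, and were purchased at 6 to 8 weeks of age. The study's methods call the mice female, and the labelled strain of 2 of the 3 Bet+HMD libraries ends in a different number, so sex and strain are given here as labelled and as uncertain. Control mice (Con) ate a standard diet. Mice of the high-methionine diet group (HMD) ate for 8 weeks a diet rich in methionine, which the body turns into homocysteine. Mice of the betaine group (Bet+HMD) ate the same diet for 8 weeks and then received betaine, a methyl donor that turns homocysteine back into methionine, at 2.5% (w/v) in the drinking water for 2 weeks. Whether the diet went on during betaine was not clear from the labels. The diet is a model of raised homocysteine, and no mouse carried an engineered allele.

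The choroid plexus is a folded sheet of epithelium around a core of vessels that hangs into the ventricles of the brain, where it makes cerebrospinal fluid and controls what passes from blood into that fluid. Its epithelial cells carry ion pumps, bicarbonate carriers and water channels for secretion, bring vitamins such as folate into the fluid, and release carrier proteins and enzymes. In each hemisphere it lies against the hippocampus along the floor of the lateral ventricle, although it is not part of the hippocampus. Of the 8 genes, Ttr encodes transthyretin, a secreted carrier of thyroid hormone and retinol-binding protein. Enpp2 encodes autotaxin, a secreted enzyme that makes lysophosphatidic acid and is also expressed by oligodendrocytes. Kl encodes klotho, a co-receptor for the hormone FGF23 whose outer part is also shed. Folr1 encodes folate receptor alpha, which carries folate across the epithelium. Folate, like betaine, provides methyl groups for the conversion of homocysteine to methionine. Aqp1 encodes a water channel, Slc4a5 a sodium bicarbonate cotransporter, Clic6 a member of the chloride intracellular channel family, and Otx2 a homeobox transcription factor needed for the choroid plexus to form.

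Promoters are shown for the members that had a RefSeq window, and shared regulation of the 8 genes was not tested. RefSeq windows on GRCm38.p6, from 250 bases before to 50 bases after an annotated start, were at hand for 4 of the 8 genes, namely Kl, Aqp1, Otx2 and Slc4a5, and were missing for Ttr, Folr1, Clic6 and Enpp2. The letters TAATCC, the core that homeodomain proteins of the Otx class bind, were searched on both strands. They were present in 1 of 7 member windows, a window of Otx2 itself, where they stood as GGATTA on the printed strand with the first base at position -211 from the start. By comparison, 7.06% of all 32851 windows and 4 of 48 windows (8.33%) of other choroid plexus genes held the letters. A match describes the letters in a window and is no evidence that a factor binds there. The windows below are printed 5′ to 3′ on the strand of the gene, in lower case, with the matched letters in capitals; they are Kl (chr5:150952357-150952656, plus strand), Aqp1 (chr6:55336049-55336348, plus strand), the window of Otx2 that held the match (chr14:48665060-48665359, minus strand) and Slc4a5 (chr6:83237125-83237424, plus strand).
Kl: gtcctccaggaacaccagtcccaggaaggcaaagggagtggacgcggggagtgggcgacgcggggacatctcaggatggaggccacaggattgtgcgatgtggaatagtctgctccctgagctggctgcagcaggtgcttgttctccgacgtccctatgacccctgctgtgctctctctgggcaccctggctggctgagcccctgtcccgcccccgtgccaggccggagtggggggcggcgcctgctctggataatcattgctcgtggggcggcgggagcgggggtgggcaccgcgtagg
Aqp1: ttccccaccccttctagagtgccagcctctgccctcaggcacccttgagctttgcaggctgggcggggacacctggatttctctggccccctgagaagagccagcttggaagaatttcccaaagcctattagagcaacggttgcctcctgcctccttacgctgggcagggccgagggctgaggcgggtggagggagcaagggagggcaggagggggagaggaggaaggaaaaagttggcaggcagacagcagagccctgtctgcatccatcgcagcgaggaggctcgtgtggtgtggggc
Otx2: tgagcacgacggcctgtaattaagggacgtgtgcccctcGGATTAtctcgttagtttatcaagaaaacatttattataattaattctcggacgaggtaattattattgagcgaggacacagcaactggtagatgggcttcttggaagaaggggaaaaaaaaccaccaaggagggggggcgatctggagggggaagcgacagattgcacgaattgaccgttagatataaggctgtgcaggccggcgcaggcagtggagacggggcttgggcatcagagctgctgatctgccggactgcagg
Slc4a5: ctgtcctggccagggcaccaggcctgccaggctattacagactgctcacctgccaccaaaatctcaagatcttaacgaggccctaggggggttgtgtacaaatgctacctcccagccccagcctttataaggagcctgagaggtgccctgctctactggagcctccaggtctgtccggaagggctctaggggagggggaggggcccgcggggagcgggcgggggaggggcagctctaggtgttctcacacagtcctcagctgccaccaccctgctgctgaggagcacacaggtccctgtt

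The tables placed Ttr at chr18:20665250-20674324 on the plus strand, Enpp2 at chr15:54838901-54952892 on the minus strand and Kl at chr5:150952607-150993817 on the plus strand (mm10, whole genes). Folr1 lay at chr7:101858331-101870788 on the minus strand, Aqp1 at chr6:55336432-55348555 on the plus strand and Slc4a5 at chr6:83219828-83304945 on the plus strand. Clic6 lay at chr16:92485736-92541243 on the plus strand and Otx2 at chr14:48657677-48673819 on the minus strand. Genes on the opposite strand overlapped Ttr (Gm16090), Folr1 (Anapc15), Otx2 (Otx2os1) and Enpp2 (Gm26684). It is not stated whether reads were counted by strand, so reads of these pairs may not be told apart. On the same strand, 2410124H12Rik overlapped Clic6 and Gm49154 overlapped Otx2, which counting by strand would not separate.

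The labelled tissue was checked first. All 12 markers of hippocampal subfields were above 0 in every library, and their summed level was 255 to 352 FPKM, with the lowest values in the 3 Bet+HMD libraries. As recovered from FPKM, the libraries held 16449388 to 18566712 reads assigned to genes in the earlier table (Con and HMD). In the later table (all 3 groups) they held 16031464 to 18291952. For Otx2, the lowest of the 8 genes, this depth meant 81 to 274 reads per library, and for Ttr 15736 to 65606. In the later table, 25315 to 25663 genes had a read in the Bet+HMD libraries, against 20816 to 23272 in the Con and HMD libraries. The part of this difference in the betaine comparisons was not tested. The Bet+HMD libraries were present in the later table alone, so a batch of libraries and the betaine treatment cannot be told apart. As labelled, betaine came after the 8 weeks of diet, so the Bet+HMD mice may also have been older. Age and time since the start of the diet cannot be told apart from betaine. In bulk tissue, fewer cells of a type and less RNA per cell cannot be told apart either.

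Con replicate 1 and HMD replicate 2 were the 2 lowest libraries in these genes. The gap could be narrow, with Aqp1 at 3.950 FPKM in HMD replicate 2 and 3.958 in the lowest Bet+HMD library. In the later table Con replicate 1 was the lowest of the 9 libraries for 8 of 8 genes, and HMD replicate 2 was the next lowest for 8 of 8. Over all 13464 genes with a mean of at least 1 FPKM, Con replicate 1 was the lowest library at 6.11%, and these 2 libraries were the lowest pair at 2.27%. The other 4 Con and HMD libraries were the 4 highest for 6 of the 8 genes, an order found at 2.19% of all genes. Both features held together for 6 of the 8 and for 0.186% of all genes. This order of libraries was read from the 8 genes themselves. The shares of all genes therefore describe how common the order was and are no test of the 8. The exceptions were Otx2 and Slc4a5, for which a Bet+HMD library ranked among the 4 highest.

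Ttr, the carrier protein, had by far the highest level of the 8. In the later table its level was 754, 2515 and 3146 FPKM in Con replicates 1 to 3, 2518, 842 and 1896 FPKM in HMD, and 1174, 1153 and 904 FPKM in Bet+HMD. The 3 Bet+HMD libraries lay between the low and the high libraries of both other groups, so no groups separated. The means were 2139 ± 1240 FPKM (SD, n = 3) in Con, 1752 ± 847 in HMD and 1077 ± 151 in Bet+HMD.

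Enpp2, the enzyme that makes lysophosphatidic acid, had the same 2 lowest libraries as Ttr and shared 30 of 36 pairs of libraries in the same order with it. Its level was 113, 407 and 315 FPKM in Con replicates 1 to 3, 334, 152 and 229 FPKM in HMD, and 169.8, 169.8 and 176 FPKM in Bet+HMD. The Bet+HMD libraries differed by 1.04-fold from lowest to highest, against 3.60-fold in Con and 2.19-fold in HMD. The group means were 278 ± 150.3 FPKM (SD, n = 3) in Con, 239 ± 91.4 in HMD and 172 ± 3.62 in Bet+HMD.

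Kl, the FGF23 co-receptor, was at 6.38, 20.4 and 15.0 FPKM in Con, 16.9, 8.93 and 13.4 FPKM in HMD, and 12.1, 11.8 and 12.5 FPKM in Bet+HMD. Its Bet+HMD libraries were close together and lay inside the range of both other groups. The folate receptor gene Folr1 was at 3.15, 11.2 and 12.3 FPKM in Con, 9.57, 3.69 and 8.87 FPKM in HMD, and 5.66, 5.98 and 4.20 FPKM in Bet+HMD. Again a single library in each of Con and HMD was lower than all of Bet+HMD, and the remaining libraries of these groups were higher.

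Among the genes of fluid secretion, the water channel gene Aqp1 was at 2.13, 10.03 and 10.1 FPKM in Con, 8.46, 3.95 and 4.76 FPKM in HMD, and 4.32, 4.05 and 3.96 FPKM in Bet+HMD. HMD replicate 2 was here barely lower than the lowest Bet+HMD library. The bicarbonate cotransporter gene Slc4a5 was at 1.89, 7.25 and 6.49 FPKM in Con, 6.24, 2.65 and 3.88 FPKM in HMD, and 4.20, 3.77 and 4.24 FPKM in Bet+HMD. Clic6, of the chloride channel family, was at 4.01, 15.8 and 19.7 FPKM in Con, 16.8, 7.12 and 12.4 FPKM in HMD, and 10.8, 11.4 and 9.98 FPKM in Bet+HMD. In all 3 genes the range of Bet+HMD lay inside that of Con.

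Otx2, the transcription factor, was the lowest of the 8. It was at 1.06, 3.01 and 3.71 FPKM in Con, 3.74, 1.62 and 3.63 FPKM in HMD, and 3.40, 2.41 and 2.41 FPKM in Bet+HMD. One Bet+HMD library was higher than Con replicate 2, and the groups overlapped.

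**Figure D1:**
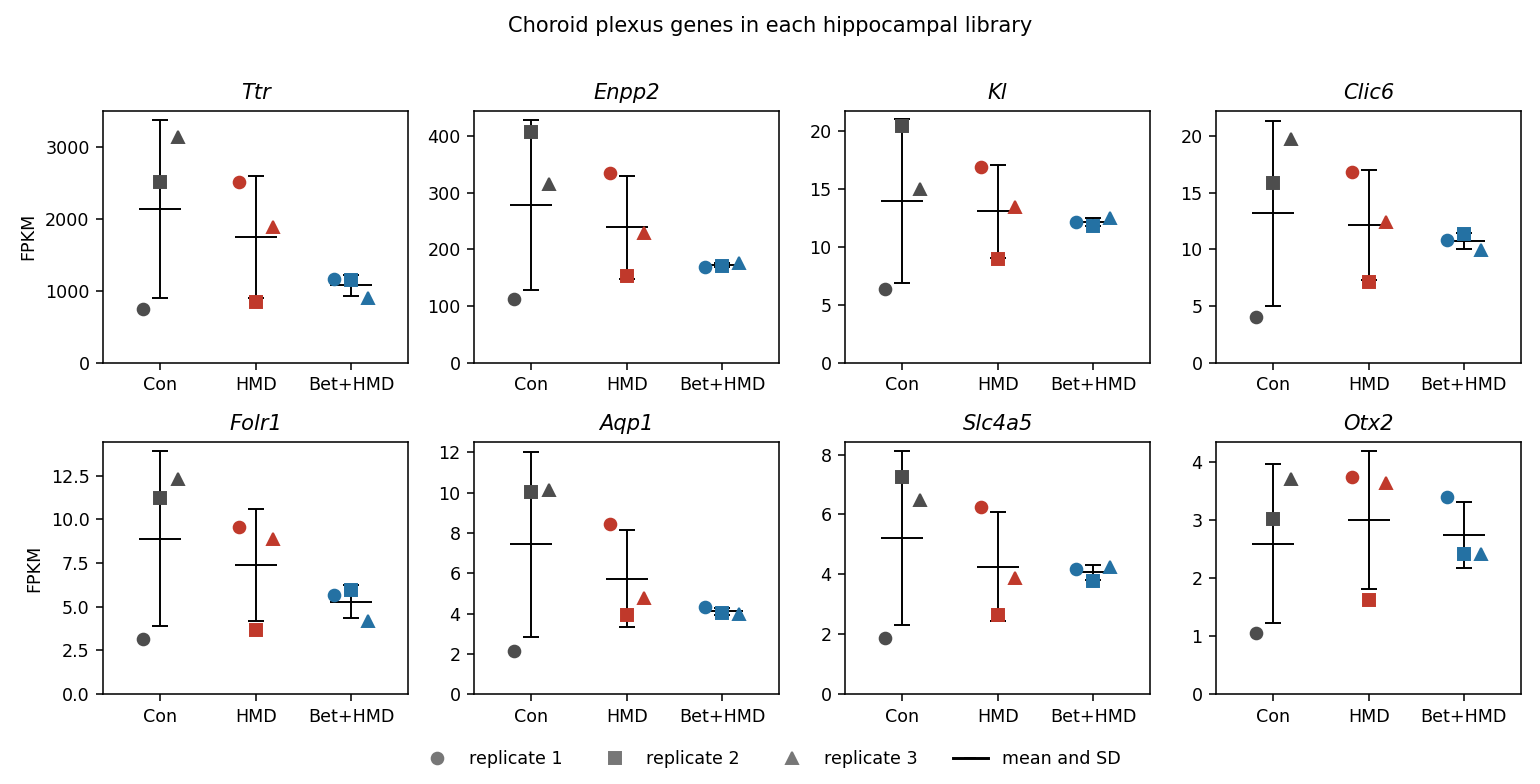
Level of each of the 8 genes in the 9 libraries of the later table, one panel a gene, in FPKM on a linear axis; points are libraries, the shape gives the replicate, and the line and bar give the mean and SD of 3. In every panel Con replicate 1 is the lowest point and HMD replicate 2 the next; the 3 Bet+HMD points differ by 1.04-fold (Enpp2) to 1.42-fold (Folr1).

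Averaged over the 9 libraries, the order of levels was Ttr at 1656 FPKM, Enpp2 at 229.6, Kl at 13.0, Clic6 at 12.0, Folr1 at 7.18, Aqp1 at 5.75, Slc4a5 at 4.51 and Otx2 at 2.78. The ranges of Ttr, Enpp2 and Kl did not overlap with their neighbours at the top of this order, since Ttr was 5.13 to 9.995 times Enpp2 within a library and Enpp2 was 14.0 to 21.0 times Kl. Below that, the ranges of every pair of neighbours overlapped. Kl was higher than Clic6 in 8 of 9 libraries, Folr1 higher than Aqp1 in 8 of 9 and Aqp1 higher than Slc4a5 in 8 of 9, so these neighbours changed places in a library each. Clic6 was higher than Folr1, and Slc4a5 higher than Otx2, in 9 of 9.

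The spread of the 8 genes within a group was larger in Con and HMD than in Bet+HMD. On the log2(FPKM + 1) scale the SD over the 3 Con libraries was 0.63 to 1.11, which lay at the 95.7 to 99.1 percentile of all genes (median of all genes 0.18). In HMD it was 0.43 to 0.82, at the 93.5 to 98.5 percentile (median 0.15). In Bet+HMD it was 0.03 to 0.23, at the 11.3 to 91.1 percentile (median 0.08), with Ttr, Otx2 and Folr1 at the upper end. From the lowest to the highest of the 9 libraries, levels spanned from 3.20-fold (Kl) to 4.90-fold (Clic6).

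Any 2 of the 8 genes put most libraries in the same order. Of the 36 pairs of libraries, between 27 and 35 were in the same order in both genes, with a median of 31.5 over the 28 pairs of genes. Ttr and the other tested genes shared a median of 18. The libraries were the same ones for every gene, so these counts describe a shared pattern in 9 libraries and carry no p-value. With Ttr as the reference, 96 of 13463 genes had at least 30 of 36 pairs in the same order, and 7 of these were the other 7 members and 17 were other choroid plexus genes.

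Beyond the 8, the genes most like Ttr in this measure were Steap1 and Ace, each with 35 of 36 pairs, then Prr32, Sfrp1 and Kcnj13 with 34, and Col8a2 with 33. Steap1 encodes a membrane protein of the STEAP family, Ace the enzyme that forms angiotensin II, and Sfrp1 a secreted inhibitor of Wnt signals. Kcnj13 encodes a potassium channel of the choroid plexus, and Col8a2 a collagen chain. Steap1 was at 1.73, 6.32 and 7.77 FPKM in Con, 5.89, 2.65 and 3.87 FPKM in HMD, and 3.51, 2.87 and 2.71 FPKM in Bet+HMD. Its lowest and next lowest libraries were again Con replicate 1 and HMD replicate 2.

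A list of 37 other genes of the choroid plexus epithelium was followed beside the 8, and 32 of them had a mean of at least 1 FPKM in the later table. Con replicate 1 was the lowest library for 18 of these 32, and the 2 low libraries formed the lowest pair for 16. The 5 with the highest levels were 1500015O10Rik, which encodes the secreted peptide augurin, at 24.1 FPKM on average, Igfbp2, an insulin-like growth factor binding protein, at 22.8, Slc29a4, a monoamine transporter, at 12.1, Ace at 11.4 and Sostdc1, a secreted BMP and Wnt antagonist, at 9.95. Among them the order of libraries was not uniform. 1500015O10Rik was at 13.8, 38.5 and 53.9 FPKM in Con, 35.2, 10.6 and 30.7 FPKM in HMD, and 13.8, 12.0 and 8.09 FPKM in Bet+HMD, so its lowest library was of Bet+HMD. Slc29a4 had a narrow range, from 9.80 to 14.1 FPKM over the 9 libraries. Slc22a8, an organic anion transporter, went the other way, with 6.27 to 6.97 FPKM in Bet+HMD and 3.13 to 4.14 FPKM in the other 6 libraries.

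**Figure D2:**
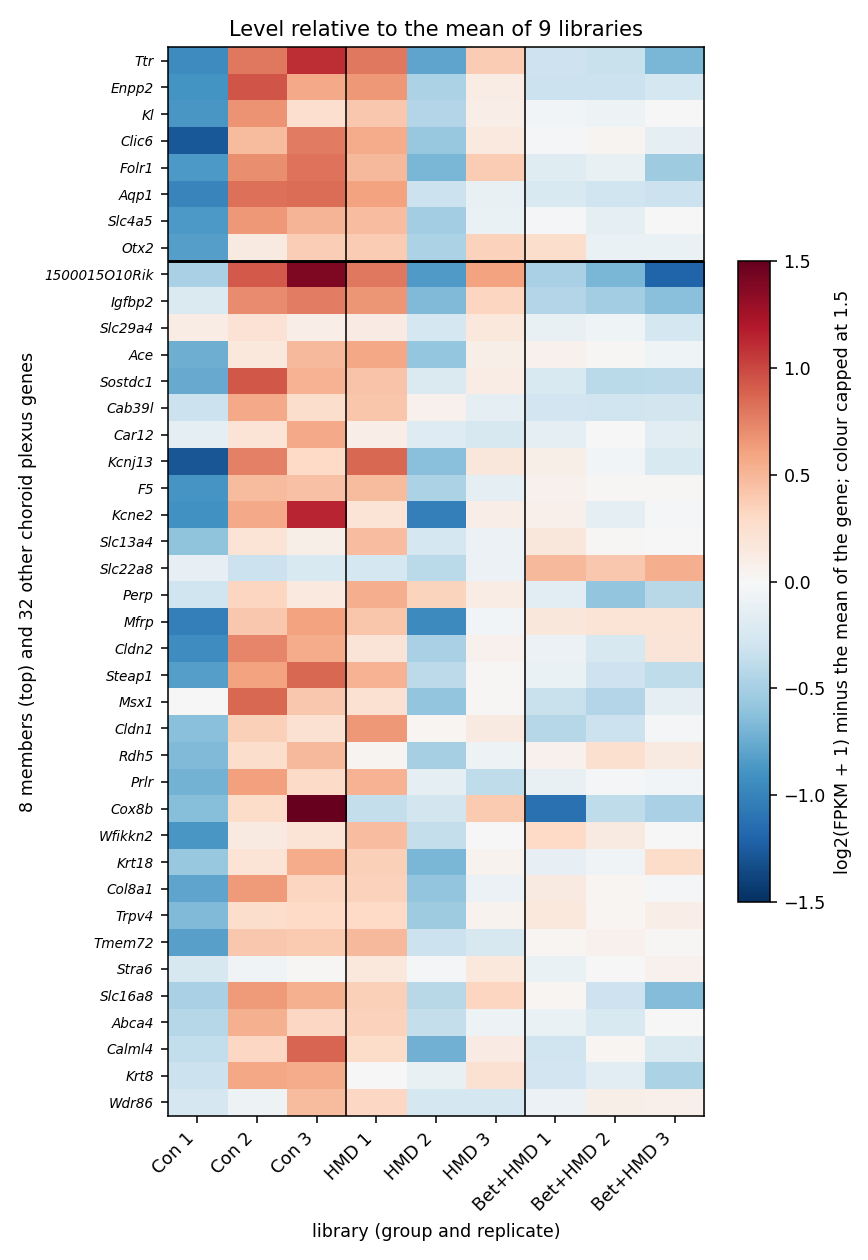
Level of the 8 genes (above the line) and of 32 other choroid plexus genes in the 9 libraries of the later table, as log2(FPKM + 1) minus the mean of the gene, with colours capped at 1.5; blue is lower and red is higher than the gene's mean. The columns of Con replicate 1 and HMD replicate 2 are blue for all 8 genes, and Slc22a8 is red in the 3 Bet+HMD columns.

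HMD was compared with Con to find what the methionine diet changed in the hippocampus, in the earlier table, which held these 2 groups alone. None of the 8 genes passed the test. In that table Ttr was at 744, 2490.2 and 3065 FPKM in Con and 2504, 827 and 1884 FPKM in HMD, and both groups covered nearly the same range. The difference in Ttr was -0.18 on the log2(FPKM + 1) scale (SE 0.59, limma adjusted p = 0.983), with a 95% interval from -1.56 to 1.20. Over the 8 genes the differences ran from -0.20 for Aqp1 to 0.19 for Otx2, with a median of -0.12, and the adjusted p of limma was 0.980 to 0.999. At an adjusted p under 0.05 there were 0 of 8 genes, at an unadjusted p under 0.05 there were 0, and 0 had groups that did not overlap. Over all 12989 genes tested, 0% passed the adjusted threshold (voom on recovered reads called 0 members too), 4.56% the unadjusted one, and 9.37% had groups that did not overlap. For each member the interval included changes of more than 1.5-fold in either direction, so an effect of the diet of that size was not detectable with these 3 against 3 libraries.

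The sign of these differences turned with single libraries. Without Con replicate 1 the difference in Ttr was -0.81 and that in Aqp1 -0.79, and all 8 estimates were negative. Without HMD replicate 2 the difference in Ttr was 0.28 and that in Otx2 0.48, and all 8 were positive. No member passed the threshold in either case, and 0% of all genes did. Of the 32 other choroid plexus genes tested, 0 were called, with 24 estimates below 0 and a median of -0.13. Over all genes 51.0% of estimates were below 0. Genes that share the low libraries can change sign together, so the 24 are not independent of each other.

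Bet+HMD was compared with HMD in the later table to see what differed with betaine under the diet. The estimates were below 0 for 7 of the 8 genes, against 52.2% of all genes, yet none of the 8 passed the threshold. The largest was that of Ttr, at 904 to 1174 FPKM in Bet+HMD and 842 to 2518 FPKM in HMD, with a difference of -0.57 (SE 0.37, limma adjusted p = 0.238). Enpp2 followed with -0.40 (SE 0.25, adjusted p = 0.225), Aqp1 with -0.34 (adjusted p = 0.243) and Folr1 with -0.34 (adjusted p = 0.387). Clic6, Kl, Otx2 and Slc4a5 had differences of -0.09 to 0.00. At an adjusted p under 0.05 there were 0 of 8 genes, where 48.3% of the 13672 genes tested were called and 25.5% were called lower. With voom on recovered reads the count was 0 as well, and at an unadjusted p under 0.05 limma gave 0 of 8, against 55.8% of all genes. Also, 0 of 8 had groups that did not overlap, against 60.1% of all genes.

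HMD replicate 2 decided this count. Without it, 4 of the 8 were called lower in Bet+HMD, where 50.7% of the 13798 genes tested were called and 26.4% were called lower. The differences were then -1.03 for Ttr (adjusted p = 0.00373), -0.71 for Folr1 (adjusted p = 0.00736), -0.68 for Enpp2 (adjusted p = 0.0124) and -0.40 for Clic6 (adjusted p = 0.0441). This library was the lowest HMD library for all 8 genes, so leaving it out raised the HMD mean by construction, and without any other single library the count was 0. Leaving out HMD replicate 2 also cut the spread, with the SE of Ttr at 0.16 instead of 0.37. These adjusted p-values therefore follow from the library left out and are no separate test.

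Of the other choroid plexus genes, 30 were tested, and 1 rose and 3 fell in Bet+HMD, where 48.3% of all genes were called. Slc22a8 rose by 0.73 (adjusted p = 0.00108), while Perp, a component of cell junctions, differed by -0.72, Cldn1, a tight junction protein, by -0.53, and Cab39l, a scaffold of the kinase STK11, by -0.40. The median of the 30 was -0.06, against -0.22 for the 8 members and -0.03 for all genes. Without HMD replicate 2 the number called was 10, where 50.7% of all genes were called, and without any other single library it was 2 or 3. Under TPM 3 were called, 2 of them higher.

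Bet+HMD and Con were compared in the same table, with the same Bet+HMD libraries as before. None of the 8 passed the threshold here either. Ttr, at 904 to 1174 FPKM against 754 to 3146 FPKM in Con, differed by -0.76 (SE 0.50, limma adjusted p = 0.268). Aqp1 differed by -0.51 (adjusted p = 0.424), Enpp2 by -0.50 (adjusted p = 0.396) and Folr1 by -0.49 (adjusted p = 0.399). Slc4a5, Kl and Clic6 had differences of -0.15 to -0.04, and Otx2 one of 0.13. The count called was 0 of 8, where 39.7% of the 13643 genes tested were called and 20.4% were called lower. With voom on recovered reads it was 0 too. The count at an unadjusted p under 0.05 was 0 of 8, against 49.6% of all genes, and 0 of 8 had groups that did not overlap, against 55.1%.

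Con replicate 1 decided the count in this comparison. Without it, 7 of the 8 were called lower in Bet+HMD, where 33.7% of the 13794 genes tested were called and 16.6% were called lower. The differences were then -1.39 for Ttr (adjusted p = 0.00451), -1.12 for Aqp1 (adjusted p = 0.00167), -1.05 for Enpp2 (adjusted p = 0.00465), -1.03 for Folr1 (adjusted p = 0.00685), -0.67 for Clic6, -0.63 for Slc4a5 and -0.50 for Kl (adjusted p = 0.0439). Otx2 was not called, at -0.23 (adjusted p = 0.309). Con replicate 1 was the lowest library for every member, so leaving it out raised the Con mean by construction. It also cut the spread, with the SE of Ttr at 0.17 instead of 0.50. These adjusted p-values therefore follow from the library left out and are no separate test. Without any other single library the count was 0.

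**Figure D3:**
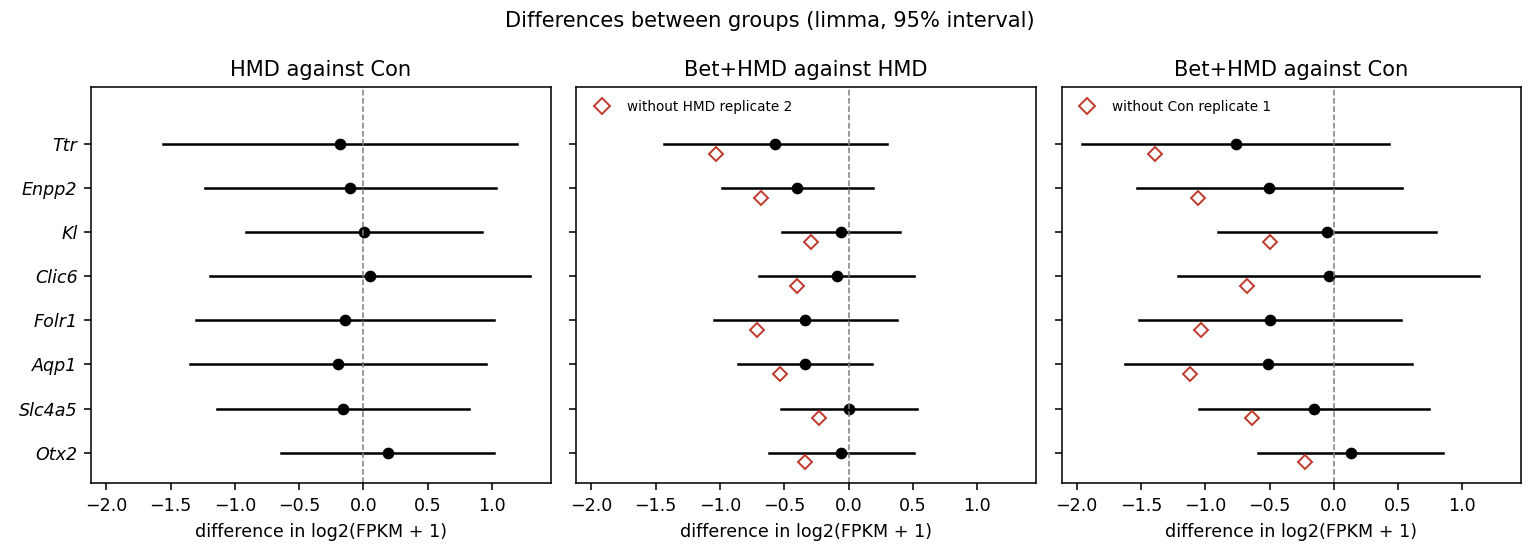
Difference in log2(FPKM + 1) of the 8 genes in the 3 comparisons, with the 95% interval of limma; open diamonds are the estimates without HMD replicate 2 (middle) or without Con replicate 1 (right). All 24 intervals include 0, and the diamonds lie to the left of 0 for all 8 genes in both betaine comparisons.

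In the list of other choroid plexus genes, 32 were tested against Con, and 1 rose and 3 fell, where 39.7% of all genes were called. Slc22a8 rose by 0.70 (adjusted p = 0.00144), Igfbp2 differed by -0.95 (adjusted p = 0.0255), Msx1, a homeobox factor, by -0.73 and Slc29a4 by -0.29. Without Con replicate 1 the number called was 19, where 33.7% of all genes were called, and without any other single library it was 1 or 2. Under TPM 1 was called, and it was higher. The median was -0.20, against -0.32 for the 8 members and -0.04 for all genes.

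The proteins that act with the 8 were taken as a list of 32 genes: folate carriers, partners of klotho, receptors and phosphatases of lysophosphatidic acid, carriers of thyroid hormone and retinol, and relatives of Otx2, Clic6, Aqp1 and Slc4a5. Of the 21 with enough signal, 0 were called between HMD and Con, where 0% of all genes were. In Bet+HMD against HMD 1 rose and 6 fell, where 22.8% of all genes were called higher and 25.5% lower. The share that fell was slightly above that of all genes. Taken in both directions, the share called was below the 48.3% of all genes. Slc4a3, an anion exchanger related to Slc4a5, rose by 0.76 from 8.26 to 14.7 FPKM on average. Plpp2, a phosphatase that breaks down lysophosphatidic acid, the product of Enpp2, differed by -0.78, and Clic4, a relative of Clic6, by -0.51. Against Con 2 rose and 4 fell, where 19.4% of all genes were called higher and 20.4% lower, the largest being Slc4a3 at 0.65, Clic1, another relative of Clic6, at -0.64, and Plpp2 at -0.58.

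A second list held 8 ion pumps, carriers and carbonic anhydrases that the choroid plexus uses for secretion but that neurons and glia also express. None was called between HMD and Con. In Bet+HMD against HMD 2 of 8 fell, with differences of -0.54 for Atp1b1, a subunit of the sodium pump, and -0.40 for Slc12a2, the sodium potassium chloride cotransporter, where 25.5% of all genes were called lower. Against Con 2 of 8 fell, with differences of -0.44 for Car2, a carbonic anhydrase, and -0.42 for Atp1b1, where 20.4% of all genes were called lower. These counts are close to the share of all genes. Their summed level spanned 1.41-fold over the 9 libraries, against 3.98-fold for the sum of the 8 members, and it was lowest in the 3 Bet+HMD libraries (687 to 706 FPKM, against 824 to 968 elsewhere). Atp1b1 made up most of this sum, with a mean of 428 FPKM in Bet+HMD against 624 in HMD and 576 in Con, while Slc4a7 and Car14 had estimates above 0 in both comparisons and were not called.

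Markers of neighbouring cells and tissues were summed in each library of the later table. The 8 members summed to 886 FPKM in Con replicate 1 and 1023 in HMD replicate 2, to 1117 to 1385 in Bet+HMD, and to 2172 to 3529 in the other 4 libraries. The 11 ependyma genes, of ciliated cells lining the ventricle, were also lowest in HMD replicate 2 (15.2 FPKM) and Con replicate 1 (15.7), but Con replicate 2, one of the libraries high in the members, was at 16.6, and up to 1 of the 11 was at 0 in a library. The 12 oligodendrocyte genes, which matter for Enpp2, were lowest in Con replicate 1 (855 FPKM), at 986 in HMD replicate 2, and at 905 to 915 in Bet+HMD. The highest oligodendrocyte sum was 1413 FPKM, in Con replicate 3, the library with the highest Ttr.

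The hippocampal markers ran the other way at one end, with their highest sum in Con replicate 1 (352 FPKM). The 11 thalamus genes were lowest in Con replicate 1 (24.9 FPKM) and highest in HMD replicate 1 (134), and at most 1 of them was at 0 in a library. The 8 meninges genes spanned 1.53-fold, the 6 endothelium genes 1.42-fold and the 5 red blood cell genes 3.23-fold, with none at 0, and none of these had the 2 low libraries as its lowest pair. The red blood cell sum was higher in all HMD libraries (149.4 to 233 FPKM) than in all Con libraries (99.8 to 147.6), by a narrow gap. The part of these cells in the pattern of the 8 genes was not tested.

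**Figure D4:**
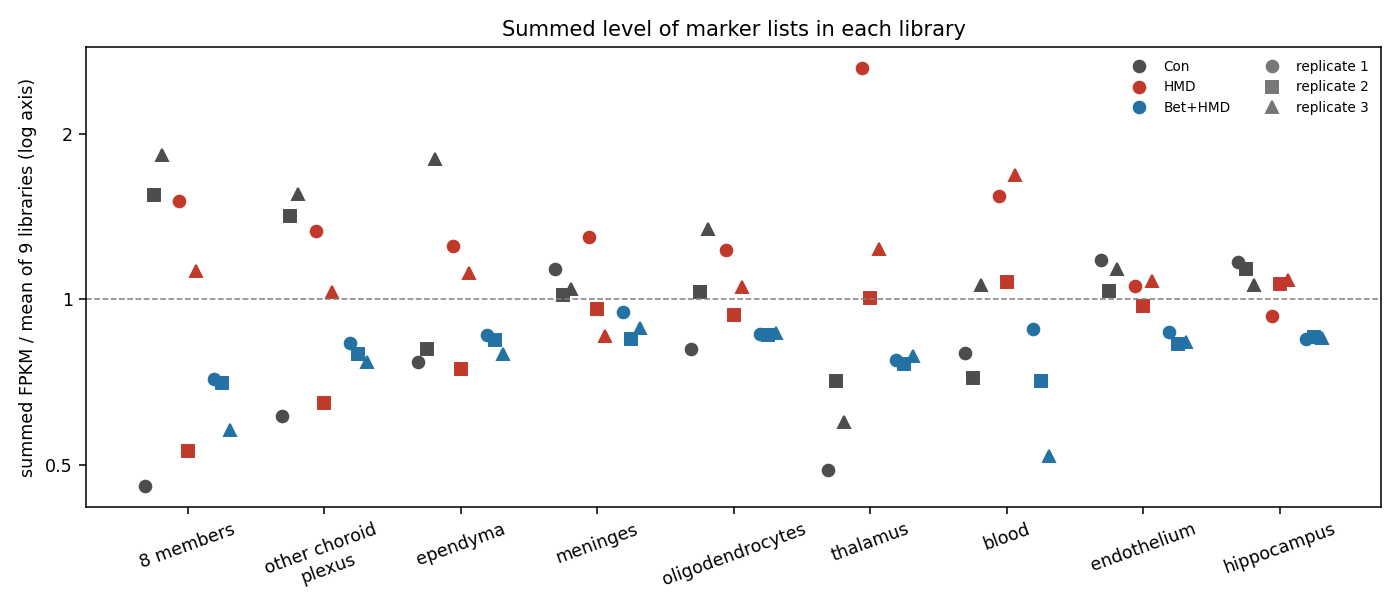
Summed FPKM of 9 gene lists in each library of the later table, divided by the list's mean over the 9 libraries, on a log axis; colour gives the group and shape the replicate. The 8 members span 3.98-fold and the other choroid plexus genes 2.53-fold with the same 2 lowest libraries, while the hippocampus list spans 1.38-fold.

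To see how the 8 moved among themselves, each was divided by the geometric mean of the 32 other choroid plexus genes in the same library, an alternative chosen after the data were seen. That mean was 2.04 FPKM in Con replicate 1, 2.42 in HMD replicate 2, 3.19 to 3.27 in Bet+HMD and 3.78 to 5.74 in the other 4 libraries. As ratios, the 8 genes spanned 1.49-fold (Enpp2) to 2.05-fold (Otx2) over the 9 libraries, where their FPKM had spanned 3.20-fold to 4.90-fold. For each of the 8 genes the range of the ratio was narrower than that of its FPKM.

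Few differences between groups were seen in these ratios. Ttr was 284 to 368 times the mean of the list in Bet+HMD, 347 to 513.7 times in HMD and 369.6 to 548 times in Con, so that Bet+HMD and Con did not overlap, though by a narrow gap. It was the only member of the 8 with a lower ratio in Bet+HMD than in all Con libraries, an order found at 3.82% of all genes. Enpp2 was 52.0 to 55.2 times the mean in Bet+HMD and 60.6 to 68.2 times in HMD, the only member of the 8 lower in Bet+HMD than in all HMD libraries (9.54% of all genes), but it overlapped with Con at 54.9 to 77.6 times. Otx2 was 0.52 to 0.65 times the mean in Con, 0.67 to 0.96 times in HMD and 0.74 to 1.06 times in Bet+HMD. It was the only member with a higher ratio in all HMD than in all Con libraries (0.519% of all genes), and the only one higher in all Bet+HMD than in all Con libraries (9.97% of all genes). Between Con and HMD the gap was narrow, at 0.647 in Con replicate 3 and 0.670 in HMD replicate 2, where Otx2 had 105 reads. The other 5 genes overlapped in all 3 comparisons, and no test was made on the ratios. The mean of the list itself ran from 2.04 to 5.74 FPKM within Con and from 2.42 to 4.90 within HMD. Dividing by it widens the range of any gene that does not follow the list. The shares of all genes are shaped by this division, so they do not measure how rare an order is.

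**Figure D5:**
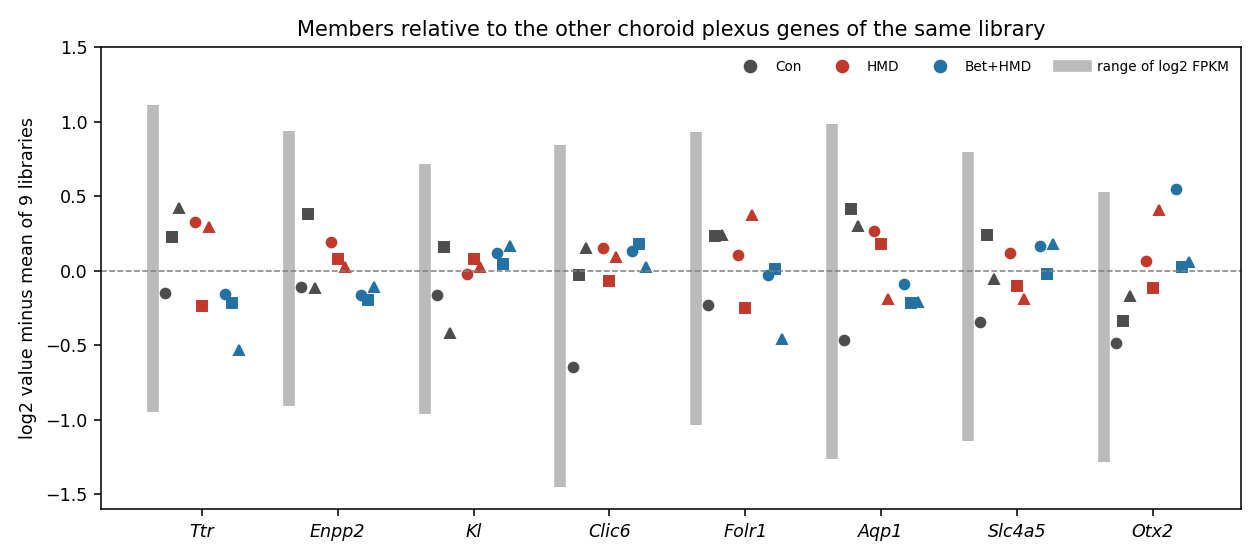
Log2 ratio of each of the 8 genes to the geometric mean of 32 other choroid plexus genes in the same library, minus the mean of the gene, for the 9 libraries of the later table; the grey bar is the range of the gene's own log2 FPKM. The points span 1.49-fold to 2.05-fold and the grey bars 3.20-fold to 4.90-fold.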

How the data were processed

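The authors removed ribosomal RNA from hippocampal RNA and made stranded libraries, which were sequenced from both ends; HISAT2 was the aligner and featureCounts the counter. The submitters' processing notes name HISAT2 2.1.0, featureCounts 1.5.0-p3 and the build mm10, while the study's methods name other versions. The deposited values were FPKM in 2 tables. They were normalised by the authors to gene length and, as inferred from the values, to a scaled library size. The deposited gene lengths in bases were used unchanged. Columns were matched to samples by name. The prefix COL was read as control, which is inferred. The library size was estimated from the FPKM values themselves, as the scale that brought FPKM times length closest to whole reads. With that scale, 100% of values were whole reads (tolerance 0.05).

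Moderated linear models with an intensity trend (limma 3.58.1, R 4.3.3) used log2(FPKM + 1) of 2 groups at a time, within a table, over all genes with a mean of at least 1 FPKM. Two-sided p-values were adjusted (Benjamini-Hochberg) across every gene tested, with a threshold of 0.05; SE is the moderated standard error. The log2 scale with a pseudocount understates changes of low genes such as Otx2. The fits were tested on simulated data. The labels number the replicates but do not tie the libraries to separate animals, so p-values measure only the spread between these libraries, and 3 libraries a group limit the precision.

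The members and lists were chosen with earlier results of these data known. The genes named were all 8 members, the 5 other choroid plexus genes with the highest mean, up to 3 called genes with the largest change of each other list and comparison, and the 6 genes most like Ttr, by the number of library pairs in the same order and then by the distance between scaled profiles. The other choroid plexus genes named as called, and Slc22a8, were chosen after their values were seen. Alternatives were a pseudocount of 0.1, no filter or a filter at 5 FPKM, TPM, centring on the median ratio, voom on the recovered reads, all 3 groups in one fit, a replicate block, the later table in place of the earlier one, and the omission of each library in turn.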

Additional observations from a re-analysis of the deposited data

How the results depend on the processing

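Under the settings that kept all libraries, 0 of the 8 members were called in each of the 3 comparisons, and 182 of 193 estimates of single members kept their direction. The other 11 changed sign, all with small estimates. In Bet+HMD against HMD these were Kl (0.14), Clic6 (0.10) and Otx2 (0.12) under TPM, and Kl (0.0232) and Otx2 (0.0175) with voom on recovered reads. In Bet+HMD against Con they were Kl (0.17), Clic6 (0.20) and Slc4a5 (0.0646) under TPM, Clic6 (0.000731) under median-ratio centring, and Kl (0.0409) and Clic6 (0.0892) with voom. Rescaling to TPM moved the median log2 difference of all genes to 0.23 in Bet+HMD against HMD and to 0.24 in Bet+HMD against Con, so under TPM these members lay below that shift. The count of other choroid plexus genes called, 4 in each betaine comparison, was 2 with no filter, 2 with centring and 2 with all 3 groups in one fit in Bet+HMD against HMD, and 2 with no filter, 1 with TPM and 2 with all 3 groups in one fit in Bet+HMD against Con; the cause was not tested.

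Leaving out 1 library at a time gave 0 to 4 members called in Bet+HMD against HMD and 0 to 7 in Bet+HMD against Con, and 2 to 10 and 1 to 19 other choroid plexus genes. In HMD against Con the log2 estimates that changed sign ran over Ttr -0.81 to 0.28, Folr1 -0.68 to 0.25, Kl -0.44 to 0.34, Aqp1 -0.79 to 0.10, Clic6 -0.58 to 0.44, Otx2 -0.17 to 0.48, Slc4a5 -0.64 to 0.13 and Enpp2 -0.65 to 0.27. In Bet+HMD against HMD the log2 estimates that changed sign ran over Kl -0.29 to 0.13, Clic6 -0.40 to 0.17, Otx2 -0.34 to 0.0902 and Slc4a5 -0.23 to 0.26. In Bet+HMD against Con the log2 estimates that changed sign ran over Kl -0.50 to 0.27, Clic6 -0.67 to 0.35, Otx2 -0.23 to 0.37 and Slc4a5 -0.63 to 0.12. An arm of 2 libraries shares the spread of the fit.

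The labels did not say whether libraries of the same replicate number were paired, and the main fits treated them as unpaired. The deviations of same-numbered libraries correlated across genes by -0.0555, 0.346 and 0.319 in HMD against Con, by 0.0171, -0.102 and -0.151 in Bet+HMD against HMD, and by -0.0489, -0.0902 and -0.176 in Bet+HMD against Con. With the replicate number as a block, 0, 0 and 0 members were called in these comparisons, and 0, 4 and 3 other choroid plexus genes. At 81 to 274 reads per library, depth limits Otx2 most, and 3 libraries a group limit all 8 genes.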
